A study of Mus musculus with 12 samples.

Results

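A set of 10 genes known from the fibroblasts of the brain's coverings was followed across 3 Mir137 genotypes of mouse cortex. The genes are Dcn, Lum, Ogn, Igf2, Igfbp2, Slc6a13, Aldh1a2, Ptgds, Fmod and Islr. They were taken by gene name from the deposited tables, where each of the 10 matched 1 of 23951 rows. RNA was sequenced from dissected cortex of C57BL/6 mice that were homozygous knockouts (KO, labelled miR-137 KO), heterozygotes (Het, miR-137/+) or wild type (WT). Each genotype had 4 libraries, 12 in all, and the study asks what miR-137 does in neurodevelopment. How the allele was made is not given in the sources used here, nor are the age and sex of the mice.

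The meninges are the membranes around the brain. Their fibroblasts lay down a collagen matrix, secrete growth factors and retinoic acid that reach the underlying cortex, and carry transporters and enzymes that take part in clearing cerebrospinal fluid. The pia, their innermost layer, lies directly on the cortex and follows its larger vessels inward, so a dissected cortex carries a variable amount of it. Several of the genes are also made elsewhere: Ptgds by oligodendrocytes and choroid plexus, Igf2 and Igfbp2 by choroid plexus, and Igfbp2 by astrocytes. These examples are not a complete list. Which cells made the RNA of any of the genes, Dcn included, was not tested. In pieces of whole tissue, fewer cells of a type and less RNA per cell cannot be told apart.

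All values are the authors' RPKM (reads scaled to transcript length and sequencing depth), 1 pooled value per genotype in each of 3 pairwise tables, so no SD accompanies them and the depth per library is unknown. The words rose and fell are kept for genes whose adjusted p, the q column of the authors' deposited table, is below 0.05. The libraries are numbered in pairs and nothing says that they came from separate animals, so these p-values measure the spread between libraries, which may be technical. Each log2 fold subtracts log2(RPKM + 1) values, so it understates the change of a gene with a low level. The same genotype's value differed between tables by at most 0.745% for any of the 10 genes. Mir137 itself was listed at 0 in KO, Het and WT, a row that therefore checks no label.

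In Het cortex 7 of the 10 genes were lower than in WT and none was higher. They were Dcn, Lum, Fmod, Igf2, Slc6a13, Aldh1a2 and Ptgds, and the other 3 also had Het values below WT. Over all 14159 genes tested in the authors' deposited table of Het against WT, 5.06% were called lower and 3.95% higher. The 10 genes were chosen with earlier results of these data known, so such shares are a description and not a test. The median log2 fold of the 10 genes was -0.53, beside 0.01 for all genes tested. In KO cortex 3 of the 10 were lower than in WT, namely Igf2, Igfbp2 and Ptgds. All 10 KO values lay below WT, with a median log2 fold of -0.37 beside 0.01 for all genes tested. Of 14059 genes tested between KO and WT in the authors' deposited table, 7.68% were called lower and 6.72% higher. Between KO and Het 1 of the 10 differed: Dcn was higher in KO. Of 14062 genes tested between KO and Het in the authors' deposited table, 0.917% were called higher and 0.953% lower.

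Ptgds had the highest level per transcript length in every genotype, with 97.3 RPKM in KO, 72.3 in Het and 145 in WT. Igfbp2 was next in each genotype. Dcn had rank 3 in KO at 28.5 RPKM, ahead of Igf2 at 26.7, but rank 4 in Het at 5.94 RPKM, close to Islr at 5.85, and rank 4 in WT at 31.9, behind Igf2 at 39.8. Islr, Slc6a13 and Lum followed in that order in every genotype. Aldh1a2, Ogn and Fmod were the lowest, with levels of 0.74 to 2.2 RPKM, and changed places between genotypes. Each level is 1 pooled value, so neighbours in this order cannot be separated by a spread.

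**Figure D1:**
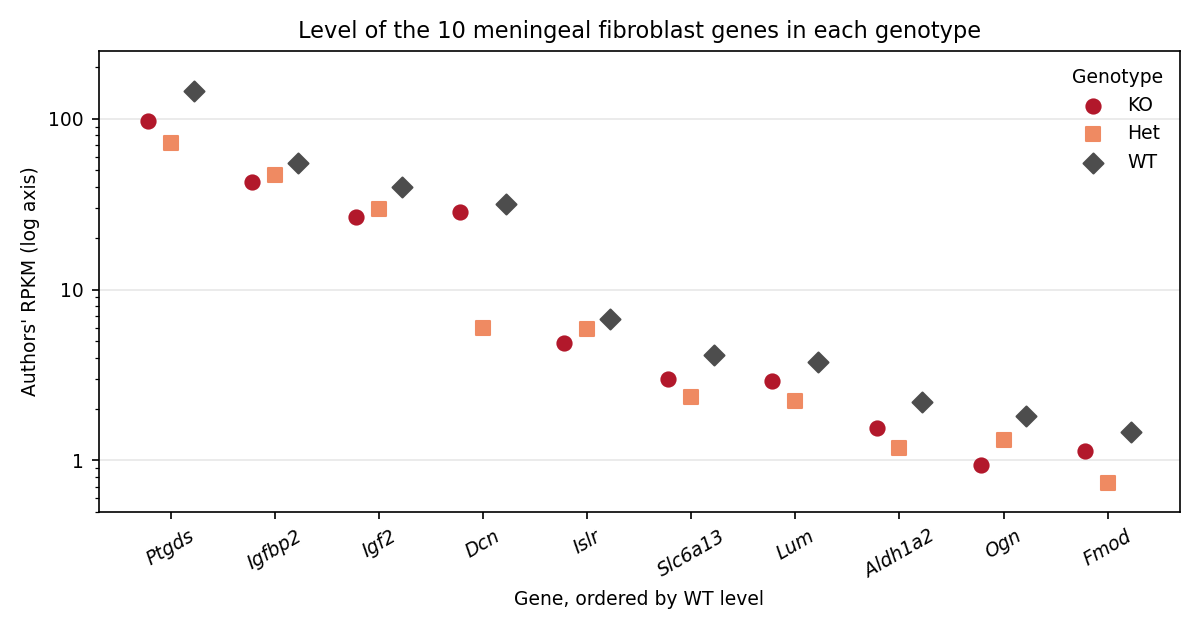
Authors' RPKM on a log axis for each of the 10 genes, 1 pooled value each for KO (circles), Het (squares) and WT (diamonds), ordered by WT level. WT is the highest of the 3 values for every gene, and Dcn in Het, at 5.94 RPKM, lies far below KO at 28.5 and WT at 31.9.

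Dcn, Lum, Ogn and Fmod encode small leucine-rich repeat proteoglycans, secreted proteins that bind collagen fibrils and set their width and spacing. Dcn encodes decorin, which also binds transforming growth factor beta. Its level was 5.94 RPKM in Het against 31.9 in WT, 5.37-fold lower (log2 fold -2.25, q 0.00135 in the authors' deposited table). By log2 fold of RPKM + 1, Dcn had rank 4 among the 696 genes of at least 1 RPKM that were lower in Het. That rank depends on the added 1. By plain RPKM ratio several of these genes fell further, among them Ttr (7.21-fold), Aqp1 (6.46-fold) and Otx2 (6.16-fold). In KO the level was 28.5 RPKM, 89.3% of the 31.9 in WT, and was not called (q 0.504 in the authors' deposited table). Set directly against each other, KO had 28.7 RPKM and Het 5.98, a 4.80-fold difference (log2 fold 2.09, q 0.00517 in the authors' deposited table). Dcn was thus low in Het, while KO and WT lay close together. Leaving Dcn aside, the median log2 fold of the other fibroblast genes in Het against WT was -0.51. Whether the Dcn difference arose in fibroblasts or in other cells of the cortex was not tested.

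The other 3 proteoglycan genes spanned less than 1 log2 unit. Lum, which encodes the fibril-regulating lumican, fell to 2.24 RPKM in Het, against 3.79 in WT (q 0.0235 in the authors' deposited table). Its KO level of 2.90 RPKM, against 3.79 in WT, was not called (q 0.229 in the authors' deposited table). Fibromodulin, encoded by Fmod, likewise regulates collagen fibrils. Fmod fell to 0.74 RPKM in Het, against 1.47 in WT (q 0.0344 in the authors' deposited table). In KO its level of 1.13 RPKM, with 1.47 in WT, was not called (q 0.321 in the authors' deposited table). Both genes therefore had their lowest value in Het and an intermediate one in KO.

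Ogn, which encodes osteoglycin or mimecan, took the other order. It had 0.946 RPKM in KO, 1.31 in Het and 1.82 in WT. Neither difference from WT was called (q 0.0769 for KO and 0.554 for Het in the authors' deposited tables), although the unadjusted p for KO was 0.0131 in the authors' deposited table. Summed over Lum, Ogn and Fmod, the level was 70.1% of WT in KO and 60.5% in Het. With Dcn included the sums were 85.8% in KO and 26.2% in Het.

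The 4 proteoglycan genes lie in clusters of related genes in RefSeq on GRCm38.p6. Dcn and Lum are neighbours on chromosome 10, next to Kera and Epyc. Ogn sits on chromosome 13 beside Omd, Aspn and Ecm2, and Fmod on chromosome 1 beside Prelp and Optc. Cluster neighbours did not share one pattern. Prelp, which anchors basement membranes to connective tissue, fell to 1.41 RPKM in KO, against 4.23 in WT (q 0.000987 in the authors' deposited table), and to 1.77 in Het, against 4.23 in WT (q 0.00135 in the authors' deposited table). Ecm2 fell to 1.19 RPKM in KO, against 2.57 in WT (q 0.00386 in the authors' deposited table), and to 1.16 in Het, against 2.57 in WT (q 0.0268 in the authors' deposited table). Omd, which lies between Aspn and Ogn, had 1.53 RPKM in KO, 1.04 in Het and 1.09 in WT, with no call, and was named after its values were seen.

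Of the 13 other genes of this proteoglycan family, 6 reached 1 RPKM in Het or WT. Of those 6, 3 (Prelp, Ecm2 and Podn) were lower in Het, and 2 of 6 were lower in KO (Prelp and Ecm2). Of all genes tested, 5.06% were called lower in Het and 7.68% in KO. The median log2 fold was -0.38 in Het and -0.17 in KO. Podn, which encodes podocan, followed the order of Dcn at a lower level. It had 0.796 RPKM in Het against 2.41 in WT (q 0.00135 in the authors' deposited table), and 1.76 in KO against 0.802 in Het (q 0.00517 in the authors' deposited table). Bgn encodes biglycan, the closest relative of decorin. Its levels were 13.1 RPKM in KO, 14.3 in Het and 12.0 in WT, and no comparison called it. It too was named after its values were seen.

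Igf2 and Igfbp2 encode an imprinted growth factor of the insulin family and a secreted protein that binds it and limits its access to receptors. Both genes had their lowest value in KO. Igf2 fell to 26.7 RPKM in KO, against 39.8 in WT (1.49-fold lower, q 0.000987 in the authors' deposited table), and to 29.7 in Het, against 39.8 in WT (1.34-fold lower, q 0.00343 in the authors' deposited table). Igfbp2 fell to 42.4 RPKM in KO, against 55.4 in WT (1.31-fold lower, q 0.0246 in the authors' deposited table). In Het the Igfbp2 level was 46.6 RPKM, against 55.4 in WT, which was not called (q 0.238 in the authors' deposited table). KO and Het differed in neither gene by a called amount: Igf2 had 26.8 RPKM in KO and 29.9 in Het (q 0.823 in the authors' deposited table), and Igfbp2 42.6 and 46.9 (q 0.873 in the authors' deposited table). In the later GENCODE M21 annotation Igf2 has 14 exon entries that overlap a same-strand gene, Gm49394, a name these tables do not use, so reads of the pair could be split under another annotation. Igf2os, an antisense gene of at most 0.157 RPKM, overlaps 2 of its exons, and the sources used here do not say whether counting used strand.

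Among 16 other insulin-like growth factor genes, 3 of 11 of at least 1 RPKM were lower in KO than in WT, beside 7.68% of all genes tested. In Het 2 of 10 were lower than in WT, beside 5.06% of all genes tested, and the median log2 folds were -0.07 in KO and -0.16 in Het. Igfbp3, the main carrier of these growth factors in blood, fell to 10.1 RPKM in KO, against 25.3 in WT (q 0.000987 in the authors' deposited table), and to 6.99 in Het, against 25.3 in WT (q 0.00135 in the authors' deposited table). Irs2, an adaptor below the insulin and growth factor receptors, fell to 6.89 RPKM in KO, against 10.4 in WT (q 0.000987 in the authors' deposited table), and to 6.83 in Het, against 10.4 in WT (q 0.00244 in the authors' deposited table). Igfbp7, a binding protein abundant in vessels, fell to 22 RPKM in KO, against 41.0 in WT (q 0.0221 in the authors' deposited table). Igfbp5, the RefSeq neighbour of Igfbp2 on chromosome 1, had 27.4 RPKM in KO, 27.4 in Het and 23.5 in WT, with no call, and was named for its place in the genome after its values were seen.

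Ptgds encodes lipocalin-type prostaglandin D synthase, which makes prostaglandin D2 and is one of the most abundant proteins of cerebrospinal fluid. It fell to 72.3 RPKM in Het, against 145 in WT (2.01-fold lower, q 0.00135 in the authors' deposited table). In KO it fell to 97.3 RPKM, against 145 in WT (1.49-fold lower, q 0.000987 in the authors' deposited table). KO had 97.7 RPKM and Het 72.8, a difference with an unadjusted p of 0.003 and a q of 0.109 in the authors' deposited table. With the p-values of the 3 tables adjusted together this difference passed, at an adjusted p of 0.0403. Ptgds and Igf2 were the 2 genes of the 10 called lower in both KO and Het.

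Of 15 other genes of prostaglandin synthesis, breakdown and reception, 10 reached 1 RPKM. Beside 7.68% of all genes tested called lower in KO and 5.06% in Het, 1 of them was lower in each mutant genotype. This was Ptgs2, the inducible cyclooxygenase that neurons also express, at 1.74 RPKM in KO against 6.75 in WT (q 0.000987 in the authors' deposited table) and 3.18 in Het against 6.75 in WT (q 0.00135 in the authors' deposited table). KO was also below Het for Ptgs2, at 1.75 against 3.20 RPKM (q 0.00517 in the authors' deposited table), whereas the Ptgds value was higher in KO.

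The promoters of the 2 genes lower in both mutants are shown because only these members were called in both comparisons with WT. Their orders differed, with Igf2 lowest in KO and Ptgds lowest in Het. Both come from RefSeq on GRCm38.p6 and run 5′ to 3′ from 250 bases before to 50 bases after a transcription start. The Igf2 window, chr7:142657447-142657746 on the minus strand, is the one lying furthest downstream of 4 listed for the gene, and the Ptgds window is chr2:25469700-25469999 on the minus strand. Capitals mark matches, on either strand, to TATAAA of the promoter core, the proximal motif CCAAT, the zinc finger motif GGGCGG, the forkhead motif GTAAACA or the nuclear receptor motif AGGTCA.
Igf2: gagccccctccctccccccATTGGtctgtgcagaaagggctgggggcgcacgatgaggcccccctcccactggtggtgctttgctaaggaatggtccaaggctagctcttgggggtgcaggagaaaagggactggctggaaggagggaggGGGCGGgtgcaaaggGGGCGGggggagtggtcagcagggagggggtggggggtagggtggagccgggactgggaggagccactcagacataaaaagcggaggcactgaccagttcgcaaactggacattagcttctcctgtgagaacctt
Ptgds: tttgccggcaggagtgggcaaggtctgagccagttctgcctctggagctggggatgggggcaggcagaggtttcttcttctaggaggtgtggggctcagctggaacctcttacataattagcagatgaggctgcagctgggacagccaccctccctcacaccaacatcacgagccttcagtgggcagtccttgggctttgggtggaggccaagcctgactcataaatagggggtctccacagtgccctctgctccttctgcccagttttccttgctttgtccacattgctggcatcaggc

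The Igf2 window held 1 match to CCAAT and 2 to GGGCGG, more matches than any other window listed for the gene. The Ptgds window held a match to none of the 5 motifs. RefSeq windows were found for 8 of the 10 genes, 14 windows in all. A match to CCAAT was found in 5 of the 14 windows, to GGGCGG in 4, to AGGTCA in 2, to TATAAA in 1 and to GTAAACA in 0. Among all 32851 RefSeq promoter windows of this length, 37.4% held CCAAT, 35.7% held GGGCGG, 16.3% held AGGTCA, 13.6% held TATAAA and 3.65% held GTAAACA. These matches are letters only and do not show binding.

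Slc6a13 encodes GAT2, a transporter that takes up GABA and taurine and sits on meningeal rather than neuronal membranes. It fell to 2.34 RPKM in Het, against 4.15 in WT (1.78-fold lower, q 0.00841 in the authors' deposited table). KO had 3.0 RPKM, against 4.15 in WT, which was not called (q 0.11 in the authors' deposited table). Of the related transporter genes, Slc6a11, Slc6a6 and Slc6a12 were not called in any comparison, and none of these had an unadjusted p below 0.05 in the authors' deposited tables. Astrocytic Slc6a11 had 57.6 RPKM in KO, 56.5 in Het and 65.2 in WT. Taurine transporter Slc6a6 had 32.1, 29.4 and 28.3 RPKM in KO, Het and WT. Slc6a12, the RefSeq neighbour of Slc6a13 on chromosome 6, stayed below 1 RPKM, at 0.373 in KO, 0.440 in Het and 0.458 in WT.

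Aldh1a2 encodes the retinaldehyde dehydrogenase that makes retinoic acid in the meninges. It fell to 1.19 RPKM in Het, against 2.2 in WT (1.85-fold lower, q 0.0388 in the authors' deposited table). KO had 1.54 RPKM, against 2.2 in WT (q 0.146 in the authors' deposited table). The other retinoic acid genes did not share that direction. Of 14 measured among 16, 4 were higher and 1 lower in KO, and 3 were higher and 1 lower in Het, with median log2 folds of 0.19 and 0.09. Over all genes tested, 6.72% were called higher and 7.68% lower in KO, and 3.95% and 5.06% in Het.

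The retinoid receptor gene Rarb rose to 14.1 RPKM in KO, against 2.76 in WT (q 0.000987 in the authors' deposited table), and to 11.9 in Het, against 2.76 in WT (q 0.00135 in the authors' deposited table). Crabp1, a cellular retinoic acid binding protein, rose to 17.7 RPKM in KO, against 4.36 in WT (q 0.000987 in the authors' deposited table), and to 14.1 in Het, against 4.35 in WT (q 0.00135 in the authors' deposited table). Cyp26b1, which degrades retinoic acid, rose to 10.4 RPKM in KO, against 5.01 in WT (q 0.000987 in the authors' deposited table), and to 13.1 in Het, against 5.01 in WT (q 0.00135 in the authors' deposited table). Striatal neurons are known for Rarb, and 10 of 10 striatal projection neuron markers also rose in both KO and Het. Their summed level was 491 RPKM in KO, 473 in Het and 59.9 in WT, and its part in the rise of the retinoid genes was not tested. Another synthesising enzyme, Aldh1a1, fell to 16.8 RPKM in KO, against 23.8 in WT (q 0.00506 in the authors' deposited table). The receptor gene Rxra fell to 3.78 RPKM in Het, against 5.63 in WT (q 0.00244 in the authors' deposited table).

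Aldh1a2 was also the 1 gene of the 10 whose longest 3' untranslated region in GENCODE M21 held a perfect match to the miR-137 seed. The mature microRNA and the site are shown because microRNAs bind their messages through such sites. Capitals mark the seed, bases 2 to 8 of the microRNA, and the 7 bases of the site that pair with it, and both run 5′ to 3′.
mmu-miR-137-3p: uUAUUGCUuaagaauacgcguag
Aldh1a2 site: aacctcgtgctAGCAATAaagcatttata

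The microRNA sequence is from RefSeq on GRCm38.p6, chr3:118433901-118433923 on the plus strand, and Aldh1a2 lies on chromosome 9. The site begins at base 618 of a region of 649 bases. Of 12419 genes of at least 1 RPKM in Het or WT with such a region, 10.9% held the match. Regions of the 10 genes had a median length of 650 bases, against 1240 for all genes. The highest of the 3 Aldh1a2 values given above was in WT.

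Islr encodes a secreted or membrane-bound leucine-rich repeat protein, also called Meflin, that marks mesenchymal stromal cells. Its levels were 4.84 RPKM in KO, 5.85 in Het and 6.70 in WT. The KO value came close to the threshold (q 0.0551 and p 0.0082 in the authors' deposited table), and the Het value did not (q 0.642 in the authors' deposited table). In GENCODE M21, 2 exon intervals of Islr overlap exons of Islr2, a neuronal gene on the same strand with 83.7 RPKM in KO, 99.4 in Het and 71.0 in WT. How reads in the overlap were assigned is not given in the sources used here, so the Islr values are uncertain. No exon of Dcn, Lum, Ogn, Igfbp2, Slc6a13, Aldh1a2, Ptgds or Fmod was overlapped by another gene of that annotation.

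Set side by side, the 10 genes showed 2 orders. Dcn, Lum, Fmod, Slc6a13, Aldh1a2 and Ptgds, 6 of 10, were lowest in Het with KO between Het and WT. Igf2, Igfbp2, Islr and Ogn, 4 of 10, were lowest in KO with Het between KO and WT. Of 14001 genes tested in both comparisons with WT, 37.4% had WT highest, 15.1% with Het lowest and 22.3% with KO lowest. As a percentage of WT the 10 genes ranged between 51.9% and 89.3% in KO (median 72.2%) and between 18.6% and 87.3% in Het (median 57.7%). The comparisons share their WT libraries, so the Het and KO percentages are not independent. Of the 6 genes lowest in Het, Dcn alone differed between KO and Het by the authors' test, and leaving Dcn aside the median log2 fold of KO against Het over the other 9 genes was 0.21. The sign of that median is not settled: over the 5 genes of at least 5 RPKM, Dcn included, it was -0.14. For the rest the order of KO and Het is a description.

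**Figure D2:**
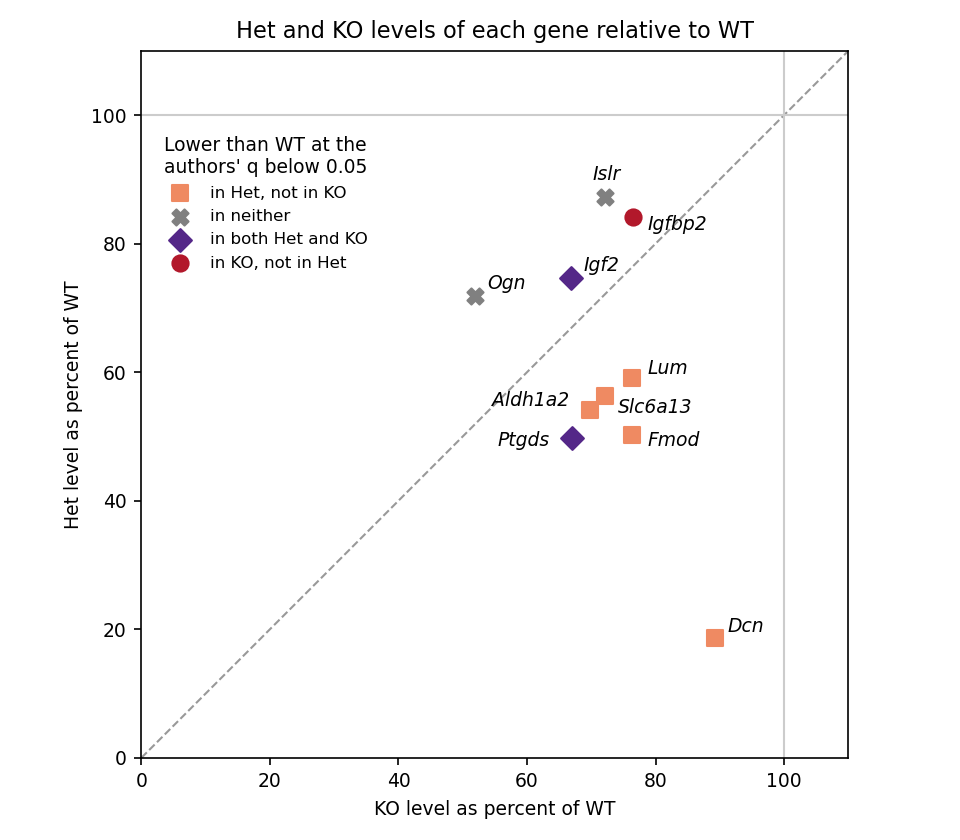
KO level (horizontal axis) and Het level (vertical axis) of each of the 10 genes as a percentage of WT, with marker shapes for the authors' calls against WT and a dashed line where KO equals Het. Dcn stands apart at 89.3% in KO and 18.6% in Het, and Ogn, Islr, Igf2 and Igfbp2 lie above the line.

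Another 34 meningeal fibroblast markers were read in the same tables, a list drawn up with earlier results of these data known. In KO 10 of 25 genes of at least 1 RPKM were lower than in WT, in Het 8 of 25, and none was higher. Over all genes tested, 7.68% were called lower and 6.72% higher in KO, and 5.06% and 3.95% in Het. Their median log2 folds were -0.33 in KO and -0.22 in Het. Slc13a4, a sulfate transporter of meninges and choroid plexus, fell to 1.03 RPKM in KO, against 5.30 in WT (5.13-fold lower, q 0.000987 in the authors' deposited table), and to 1.44 in Het, against 5.29 in WT (3.66-fold lower, q 0.00135 in the authors' deposited table). Mgp, a matrix protein that inhibits calcification, fell to 12.9 RPKM in KO, against 30.6 in WT (q 0.000987 in the authors' deposited table), and to 12.9 in Het, against 30.5 in WT (q 0.00135 in the authors' deposited table). Pcolce, which speeds the trimming of procollagen, fell to 2.62 RPKM in KO, against 5.96 in WT (q 0.000987 in the authors' deposited table), and to 3.0 in Het, against 5.96 in WT (q 0.00135 in the authors' deposited table).

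The amino acid transporter gene Slc6a20a fell to 2.97 RPKM in KO, against 6.16 in WT (q 0.000987 in the authors' deposited table), and to 3.68 in Het, against 6.15 in WT (q 0.0148 in the authors' deposited table). Zic1, a zinc finger transcription factor of meninges and several neuron types, fell to 3.37 RPKM in KO, against 7.72 in WT (q 0.000987 in the authors' deposited table), and to 5.46 in Het, against 7.71 in WT (q 0.0171 in the authors' deposited table). Nov, a matricellular protein that cortical neurons also express, was lowest in Het, as Dcn was. It had 38.5 RPKM in Het against 107 in WT (q 0.00135 in the authors' deposited table), and 73.6 in KO against 38.8 in Het (q 0.00517 in the authors' deposited table). Unlike Dcn, Nov also fell in KO, to 73.1 RPKM, against 107 in WT (q 0.000987 in the authors' deposited table).

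The list also holds collagen and transcription factor genes. The collagen gene Col1a2 fell to 6.23 RPKM in KO, against 8.44 in WT (q 0.0113 in the authors' deposited table), while Het, at 7.08 against 8.43 RPKM in WT, was not called. Col3a1, another fibrillar collagen gene, was called in neither, with 4.91 RPKM in KO, 5.33 in Het and 5.47 in WT. The transcription factor genes Foxc1 and Tbx18 of meningeal and mural cells were also not called against WT: Foxc1 had 1.46 RPKM in KO, 1.21 in Het and 1.27 in WT, and Tbx18 1.07, 1.03 and 1.06. These 4 genes were picked from the list after their values were seen.

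Markers of other cells at the brain's borders moved as well. Against WT, 7.68% of all genes tested were called lower in KO and 5.06% in Het. Of 12 choroid plexus epithelium markers of at least 1 RPKM among 14, 11 were lower in KO and 11 in Het. Their summed level was 93.8 RPKM in KO, 298 in Het and 2094 in WT, or 10.3, 17.1 and 67.4 RPKM without Ttr, and none was listed at 0 in any genotype. The median log2 fold was -1.82 in KO and -1.57 in Het, beside -0.37 and -0.53 for the 10 fibroblast genes. Between KO and Het 3 of 8 measured choroid plexus markers were lower in KO and none was higher, beside 0.953% and 0.917% of all genes tested. Of the 10 fibroblast genes Dcn was called higher in KO. Igf2, Igfbp2, Islr and Ogn had lower values in KO than in Het, without a call, the same order as the choroid plexus sum. Border macrophage markers fell in 5 of 6 measured genes in KO and 3 of 6 in Het, with summed levels of 9.12 RPKM in KO, 9.96 in Het and 17.1 in WT. The part of choroid plexus and border macrophage content in the fibroblast gene values was not tested.

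Vascular markers were mixed. Against WT, 7.68% of all genes tested were called lower and 6.72% higher in KO, and 5.06% and 3.95% in Het. Pericyte and smooth muscle markers were higher in 3 of 11 genes in KO and 1 of 11 in Het with none lower, and their summed level was 102 RPKM in KO, 108 in Het and 88.6 in WT. Endothelial markers were lower in 3 of 10 and higher in 1 in KO, and lower in 4 of 10 and higher in 1 in Het. Oligodendrocyte markers, given because Ptgds is also theirs, fell in 3 of 10 genes in KO and rose in 2 of 10 in Het. Their summed level was 918 RPKM in KO, 1588 in Het and 1161 in WT. It was highest in Het, where Ptgds was lowest. In KO both lay below WT, the sum at 79.1% and Ptgds at 67.0% of WT. The part of oligodendrocyte content in the Ptgds values was not tested. KO was below Het in 10 of 10 oligodendrocyte markers, 8 of them called lower, beside 0.953% of all genes tested in that comparison. Astrocyte markers, given because of Igfbp2, were not called in KO in any of 8 genes, although 3 had an unadjusted p below 0.05 in the authors' deposited table, and were lower in 2 and higher in 1 in Het. Cortical excitatory neuron markers were present in all genotypes, with summed levels of 1230 RPKM in KO, 1390 in Het and 1619 in WT. Of these 6 genes 1 was lower and 1 higher in KO, and 2 were higher in Het.

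**Figure D3:**
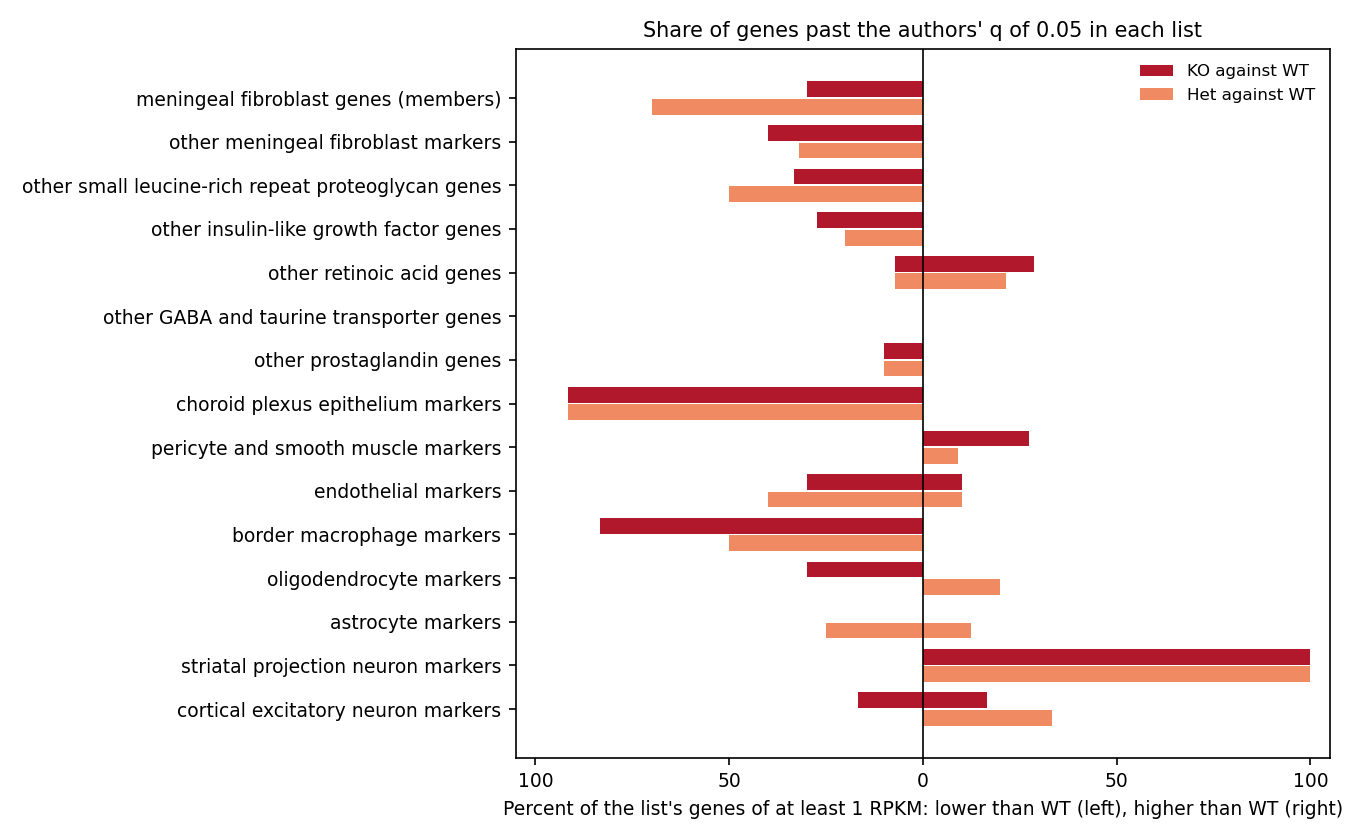
Share of the genes of at least 1 RPKM in each list that the authors' q below 0.05 called lower (left of 0) or higher (right of 0) than WT, in percent, with KO above Het for each list. The 10 fibroblast genes and the choroid plexus and border macrophage markers extend to the left. So do the other meningeal fibroblast, other proteoglycan and endothelial lists. In KO the fibroblast genes, at 3 of 10, reach as far left as the endothelial and oligodendrocyte markers, each also 3 of 10. All 10 striatal projection neuron markers extend to the right.

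Genes with folds most like the middle of the group were looked for among 9643 genes of at least 5 RPKM in WT. Likeness was the distance between a gene's pair of log2 folds, Het against WT and KO against WT, and the medians of the 10 genes, over 3 genotypes. The nearest 10 were Ppp4r4, Bcam, Xylt1, Chrd, Nap1l5, Klhl11, Tmem200a, Nme5, Malat1 and Elfn2, with distances between 0.003 and 0.038 log2 units. Bcam, for example, had 4.38 RPKM in KO, 3.84 in Het and 5.98 in WT. None of the 10 is on any list of markers used here.

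Dcn was also placed among the 126 genes of at least 1 RPKM that were higher in KO than in Het, a ranking added after its values were seen. Ranked by log2 fold of RPKM + 1, it came at rank 2, with a log2 fold of 2.09. Such folds understate genes of low level, so the order depends on the added 1. At rank 1 was Nts, the neurotensin precursor, at 42.8 RPKM in KO and 7.56 in Het, and at rank 3 was the transcription factor gene Tshz2, at 10.9 RPKM in KO and 2.35 in Het. Nts and Tshz2 are neuronal genes, and their WT levels in the tables were 13 and 6.03 RPKM. The relaxin receptor gene Rxfp1, at rank 4, had 4.78 RPKM in KO and 0.932 in Het. By plain RPKM ratio Rxfp1 differed by more than Dcn. Ndrg1, a stress-responsive gene at rank 5, had 14.9 RPKM in KO and 4.49 in Het, with 20.2 in WT, the same order of genotypes as Dcn.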

How the data were processed

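Cortex of C57BL/6 mice was profiled in 4 libraries each of KO, Het and WT at Mir137, grouped by the genotype in the titles. Per the submitters' processing notes, CASAVA 1.4, TopHat2 2.0.13, Cuffdiff 2.2.1 and the build mm9 were used. Their roles and the annotation behind the gene rows are not stated there. Per the file headers, the authors deposited 3 pairwise tables, each holding RPKM for 2 genotypes and, from the authors' own test, a p-value and a q-value for every gene. Adjusting the deposited p-values below 1 by Benjamini-Hochberg gave their q-values to within 7.1e-05, and genes with a p of 1 were taken as untested. The deposited log2 fold column was not used. All columns used carried a genotype.

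Computed here were log2 folds of RPKM + 1, percentages of WT, counts of genes at q below 0.05, and an adjustment over the 3 tables together, a step tested on simulated data. A gene counted as measured at 1 RPKM in either genotype; all 10 genes were, Fmod and Ogn in some comparisons through 1 genotype. The depth per library is unknown, and with 1 value per genotype no expression test could be computed. The genes named are the 10 members, up to 6 called genes per list by smallest q, related transporters (1 is not reported here) and the 10 nearest genes; others are marked in the text. The members and the 14 other lists were chosen with earlier results of these data known. Alternatives were q below 0.01, joint adjustment, a minimum absolute log2 fold of 0.5, minima of 5 RPKM and none, pseudocounts of 0.1 and 0.01, and recentred folds; for the other lists they were added after seeing the data. Seed matches used the longest 3' untranslated region per gene name in GENCODE M21. The software was Python 3.11.15 with pandas 2.3.3, numpy 2.4.6, matplotlib 3.10.9 and scipy 1.17.1.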

Additional observations from a re-analysis of the deposited data

Results flagged for a closer look

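The direct comparison of KO and Het gave called differences, at q below 0.05 in the authors' deposited table, for 1 of the 10 fibroblast genes and 7 genes of related or choroid plexus lists. Their Het and KO levels thus departed from WT by different amounts. Of all genes tested, 0.917% were called higher and 0.953% lower in KO than in Het. Outside the lists flagged here, 8 of 10 oligodendrocyte markers and 1 of 8 astrocyte markers were also called lower in KO. For Dcn, KO had 28.7 RPKM and Het 5.98, a log2 fold of 2.09 (q 0.00517 in the authors' deposited table). Nov, with 73.6 RPKM in KO and 38.8 in Het, had a log2 fold of 0.91, and Podn, with 1.76 and 0.802 RPKM, one of 0.61 (q 0.00517 for both in the authors' deposited table). The remaining flagged genes were lower in KO than in Het. Ttr, the thyroid hormone carrier of choroid plexus, had 83.8 RPKM in KO and 283 in Het (log2 fold -1.75, q 0.00517 in the authors' deposited table). The folate receptor gene Folr1 had 1.36 RPKM in KO and 3.12 in Het (log2 fold -0.80, q 0.0265 in the authors' deposited table). The water channel gene Aqp1 had 0.44 RPKM in KO and 1.20 in Het (log2 fold -0.61, q 0.0214 in the authors' deposited table). Ptgs2 had 1.75 RPKM in KO and 3.20 in Het (log2 fold -0.61, q 0.00517 in the authors' deposited table), and Zic1 had 3.39 and 5.50 (log2 fold -0.57, q 0.0154 in the authors' deposited table).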

How the results depend on the processing

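The 7 genes lower in Het became 4 at q below 0.01, without Lum, Aldh1a2 and Fmod, and 3 with a minimum of 5 RPKM, which leaves 5 genes. The median log2 fold of Het against WT was -0.77 with a pseudocount of 0.1 RPKM, -0.79 with 0.01 and -0.41 with a minimum of 5 RPKM. With p-values adjusted jointly over the tables, Dcn and Ptgds (2 genes) were higher in KO than in Het. The median log2 fold of KO against Het was 0.34 with a pseudocount of 0.1 RPKM and 0.36 with 0.01. With a minimum of 5 RPKM it reversed to -0.14, since that leaves Dcn, Ptgds, Igf2, Igfbp2 and Islr, 3 of which are lowest in KO. In KO against WT, 2 genes were called at q below 0.01, without Igfbp2. No direction of any single gene changed under the pseudocounts or recentring. Of 420 counts over the other lists and settings, 36 moved by over 1.5 times.

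No paired analysis was possible because the tables hold 1 pooled value per genotype and no column per library. Likewise, leaving out a library was not possible, and the depth and the spread between libraries limit every value by an unknown amount.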
